A study of Mus musculus with 4 samples.

Results

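Dense clusters of CCGG at the starts and ends of genes were examined in the left ventricle of the mouse heart, using HMST-seq, an assay that reads short tags beside CCGG sites. A site was a member when it was autosomal, was listed in the files of all 4 samples, had at least 5 such sites (itself included) within 500 bp on either side, and lay within 1 kb of the start or end of a protein-coding gene. These criteria took 5619 of 967498 autosomal sites listed in all 4 samples (0.581%), at the ends of 2176 of 20665 genes. They were 46.9% of the 11976 dense sites, and no member had more than 11 listed sites in its window. Member sites separated by at most 500 bp were joined into 1903 clusters, of which the 905 with at least 3 sites (4225 sites) are described as clusters below. The other 1394 member sites, in the 998 smaller clusters, enter the values given per site.

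The 4 samples were infarcted tissue of Neil3-null mice, non-infarcted tissue of Neil3-null mice, infarcted tissue of wild-type mice and non-infarcted tissue of wild-type mice, with 1 sample per group. All mice were C57BL/6, were 8 weeks old and had undergone a myocardial infarction 3 days earlier, so the non-infarcted samples are not from uninjured animals. Neil3 encodes a DNA glycosylase that removes oxidized bases. The labels say neither how many mice gave a sample nor whether infarcted and non-infarcted tissue came from the same hearts. No member site lay at Neil3 itself, so the clusters do not check the genotype labels. Infarcted tissue contains other cells than intact muscle, and in bulk DNA a change within cells and a change in the mix of cells cannot be told apart.

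Vertebrate DNA is methylated at most CpG dinucleotides, and CpG-rich stretches around gene starts are the main exception: they are kept free of methylation in most tissues. Methylation at the start of a CpG-rich gene accompanies stable silencing, for example of germline genes in somatic tissue, whereas methylation inside and at the far end of a gene is common in expressed and silent genes alike. Oxidation of 5-methylcytosine (5mC) by TET enzymes gives 5-hydroxymethylcytosine (5hmC), which is most abundant in brain and present in heart. The assay reads these states at CCGG through 3 libraries per sample. HpaII cuts unmodified sites only, MspI cuts all of them, and MspI after glucosylation (the C+mC library) spares sites that carry 5hmC. A low HpaII/MspI ratio therefore marks modified sites and a low C+mC/MspI ratio marks hydroxymethylated ones. The 3 libraries of a sample sum to similar totals over all listed sites, so unmodified sites stand above 1 and the ratios are relative, not shares of molecules.

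The sequences of 4 gene starts are given as examples, 2 with HpaII/MspI ratios far below the typical cluster and 2 close to it. Each is the RefSeq window of 300 bases around the annotated start (build GRCm38.p6, the mm10 assembly), written 5′ to 3′ on the strand of the gene, and capitals mark the member CCGG sites. Slc25a31, an ADP/ATP carrier of germ cells, lies at chr3:40708621-40708920 on the plus strand. Hormad1, a protein of the meiotic chromosome axis, lies at chr3:95559427-95559726 on the plus strand. Cop1, a ubiquitin ligase, lies at chr1:159231950-159232249 on the plus strand, and Higd1a, a mitochondrial protein induced by hypoxia, at chr9:121857747-121858046 on the minus strand. The last pair was chosen after values were seen, as windows with 5 member sites whose clusters lay near the median.
Slc25a31: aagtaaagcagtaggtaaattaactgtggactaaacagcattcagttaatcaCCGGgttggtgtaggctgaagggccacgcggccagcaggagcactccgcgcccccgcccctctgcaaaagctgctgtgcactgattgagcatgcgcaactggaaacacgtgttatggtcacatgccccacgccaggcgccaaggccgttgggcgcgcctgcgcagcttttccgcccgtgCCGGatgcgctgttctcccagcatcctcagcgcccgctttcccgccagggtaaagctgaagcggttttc
Hormad1: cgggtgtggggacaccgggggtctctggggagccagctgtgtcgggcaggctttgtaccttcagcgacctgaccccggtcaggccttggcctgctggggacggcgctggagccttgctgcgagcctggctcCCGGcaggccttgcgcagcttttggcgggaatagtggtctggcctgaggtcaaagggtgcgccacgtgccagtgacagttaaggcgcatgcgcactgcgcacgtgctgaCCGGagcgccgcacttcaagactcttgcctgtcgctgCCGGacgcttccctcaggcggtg
Cop1: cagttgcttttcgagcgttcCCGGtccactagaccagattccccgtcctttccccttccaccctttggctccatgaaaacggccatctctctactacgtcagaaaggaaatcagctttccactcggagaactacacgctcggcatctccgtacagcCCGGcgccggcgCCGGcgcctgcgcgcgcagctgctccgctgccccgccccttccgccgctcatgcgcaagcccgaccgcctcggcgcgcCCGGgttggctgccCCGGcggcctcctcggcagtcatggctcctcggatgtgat
Higd1a: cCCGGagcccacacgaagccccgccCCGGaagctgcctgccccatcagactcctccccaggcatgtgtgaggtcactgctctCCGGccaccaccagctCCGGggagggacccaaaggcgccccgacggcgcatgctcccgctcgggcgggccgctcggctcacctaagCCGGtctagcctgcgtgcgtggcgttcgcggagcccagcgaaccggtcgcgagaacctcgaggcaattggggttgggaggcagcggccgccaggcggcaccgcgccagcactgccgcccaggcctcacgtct

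In the Slc25a31 window both CCGG sites were members. The site at position -19 from the start had HpaII/MspI ratios of 0.385 and 0.409 in infarcted and non-infarcted Neil3-null tissue and 0.277 and 0.321 in infarcted and non-infarcted wild-type tissue. The window of Hormad1 held low and high sites side by side. Its site at position -10 had ratios of 0.127 and 0.0864 in infarcted and non-infarcted Neil3-null tissue and 0.0585 and 0.0641 in infarcted and non-infarcted wild-type tissue, whereas the site at position -119 had 1.89, 1.90, 1.99 and 2.29 in the same order. In Cop1 the site at position 10 had ratios of 1.22, 0.972, 1.06 and 1.21 in that order, and the site at position -94 had 3.13, 2.87, 2.37 and 2.91. The second of these 2 Cop1 sites was above the first in every sample.

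Lowercase CCGG in these windows, such as the one between the neighbouring sites at positions -94 and -82 of Cop1, were not listed in all 4 files. Across the RefSeq promoter windows, 80.0% of CCGG sites were listed in all 4 samples where a window held 1 such site, 52.7% where it held 2, 33.4% where it held 3, and 7.69% where it held 8 or more. Over 4047 windows with 1 CCGG, 3239 sites were listed in all 4 samples, and over 309 windows with 8 or more, 208 were. The density counted here is that of listed sites. It understates the density of CCGG in the DNA and does not track it across these windows, so values by class describe listed sites only. At least 1 CCGG stood in 62.9% of the windows of 16437 genes. All 11705 listed sites within the windows stood on a CCGG.

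The first question was how far the ratios vary with the density of listed sites. Until the split by strand below, gene ends stands for starts and ends alike. Among member sites, those with 5 to 7 listed sites in the window had HpaII/MspI ratios of summed signal of 1.75 and 1.78 in infarcted and non-infarcted Neil3-null tissue and 1.80 in both wild-type tissues (5527 sites). Those with 8 to 11 had 1.64 and 1.73 in infarcted and non-infarcted Neil3-null tissue and 1.79 and 1.75 in infarcted and non-infarcted wild-type tissue (92 sites). No sites with 12 or more were listed. Below the threshold, sites at gene ends with 2 to 4 listed sites had 1.86 and 1.82 in infarcted and non-infarcted Neil3-null tissue and 1.88 and 1.82 in infarcted and non-infarcted wild-type tissue, and lone sites had 1.60, 1.52, 1.60 and 1.48 in the same order. At gene ends the ratio therefore stood highest in the class of 2 to 4 sites and not in the classes with more listed sites. This order did not hold among sites with a mean MspI signal of at least 10, where the mean over samples was 1.73 at 5 to 7 sites and 1.72 at 2 to 4, or of at least 20, where it was 1.60 and 1.52.

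The 8994 sites just outside the threshold, with exactly 4 listed sites, had HpaII/MspI ratios of 1.84 to 1.88 over the 4 samples, and the 3878 just inside, with exactly 5, had 1.78 to 1.83. The C+mC/MspI ratio at 5 to 7 sites was 1.27 and 1.33 in infarcted and non-infarcted Neil3-null tissue and 1.21 and 1.37 in infarcted and non-infarcted wild-type tissue. Lone sites at gene ends had 1.03 and 1.04 in Neil3-null and 1.01 and 1.14 in wild-type tissue, in the same order of tissues, so this ratio was above that of lone sites in every sample.

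**Figure D1:**
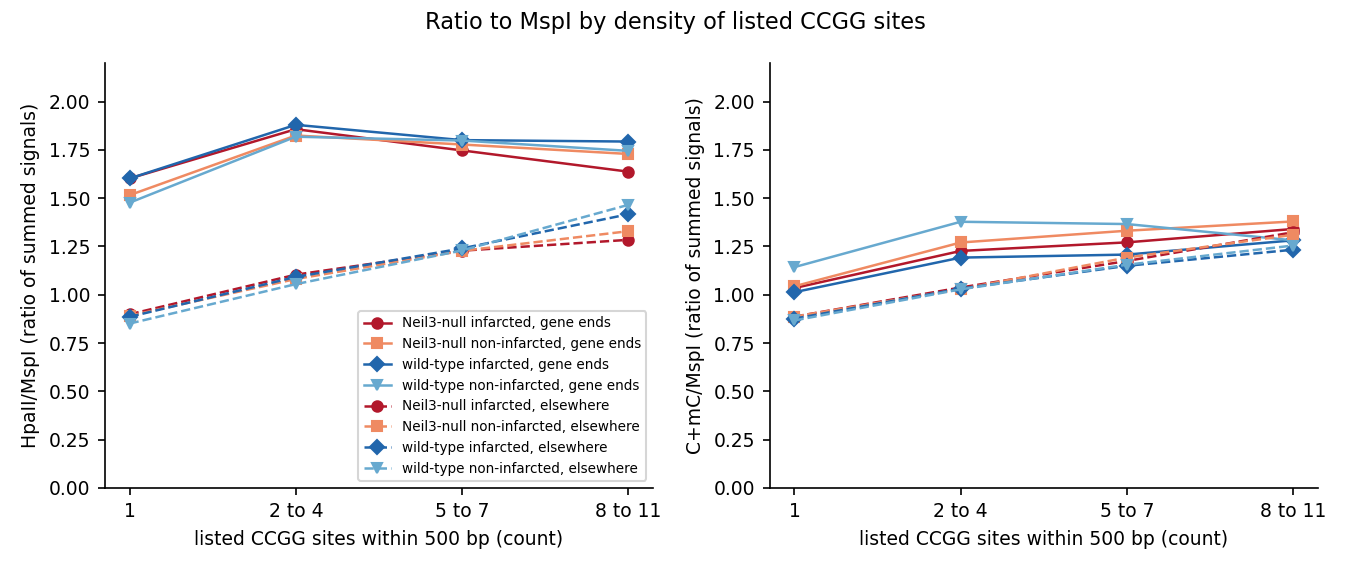
Ratio of summed HpaII signal (left) and summed C+mC signal (right) to summed MspI signal, by the number of listed CCGG sites within 500 bp, for each of the 4 samples. Solid lines are sites within 1 kb of a gene start or end and dashed lines all other autosomal sites; at 5 to 7 listed sites HpaII/MspI was 1.75 to 1.80 at gene ends and 1.23 to 1.24 elsewhere.

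The same density of listed sites went with lower ratios away from gene ends. The median HpaII/MspI ratio of the 905 clusters was 1.81 and 1.85 in infarcted and non-infarcted Neil3-null tissue and 1.89 and 1.88 in infarcted and non-infarcted wild-type tissue. For the 704 dense clusters inside gene bodies the medians were 1.28, 1.29, 1.26 and 1.28 in the same order, and for the 196 dense clusters far from genes 1.34, 1.29, 1.37 and 1.34. The log2 difference from gene-body clusters averaged 0.54 ± 0.04 (SD over 4 samples) and that from distant clusters 0.47 ± 0.04, positive in 4 of 4 samples. Sparse clusters at gene ends had slightly higher medians than the dense ones, by a log2 difference (dense minus sparse) of -0.13 ± 0.02. Each of these, and the start and end comparison below, gave p = 0.125 in a two-sided exact permutation test paired over the 4 samples, which is the smallest p that 4 samples allow. The Benjamini-Hochberg adjusted value over the 8 comparisons was also 0.125.

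The median cluster of each sample was taken as the unmodified state, which the relative ratios do not measure by themselves. A minority of clusters departed from it. The rule for a departure was an HpaII/MspI ratio of at most 0.25 times that of the median cluster of the same sample, in all 4 samples. It was met by 12 of 905 clusters (1.33%), against 7.61% of the 50247 clusters of all classes. In 1 to 3 samples it was met by 9 more, against 5140 of the 50247. At 0.5 times the median, 45 clusters (4.97%) departed in all 4 samples, against 32.4% of all classes. At least double the median in all 4 samples was reached by 6 clusters, against 2.37% of all classes. Among dense clusters inside gene bodies 10.8% lay at or below 0.25 times the same median and 31.1% at or below 0.5 times it. Among the 7237 sparse clusters at gene ends the shares were 2.46% and 10.9%. Low shares were therefore not particular to the dense clusters at gene ends.

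The share of departing clusters differed with the end of the gene that a cluster flanked, without a clean split. From here on a gene end is the far end alone, unless a start is named too. The strand was known for 16457 genes, which placed 634 clusters at gene starts only, 40 at gene ends only and 58 at both, and left 173 unplaced. Clusters at gene ends had a median HpaII/MspI ratio of 0.904 and 0.863 in infarcted and non-infarcted Neil3-null tissue and 0.859 and 0.904 in infarcted and non-infarcted wild-type tissue. Those at gene starts had 1.85, 1.92, 1.92 and 1.93 in the same order. The log2 difference, end minus start, was -1.11 ± 0.06 (SD over 4 samples) and was negative in 4 of 4 samples. Of the 40 end clusters 6 (15%) departed at 0.25 times the median and 18 (45%) at 0.5 times; of the 634 start clusters the counts were 0 and 13 (2.05%). The smaller clusters of 1 or 2 sites showed the same order, with 22 of 126 end clusters (17.5%) and 3 of 638 start clusters (0.47%) at or below 0.25 times the median in all 4 samples.

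**Figure D2:**
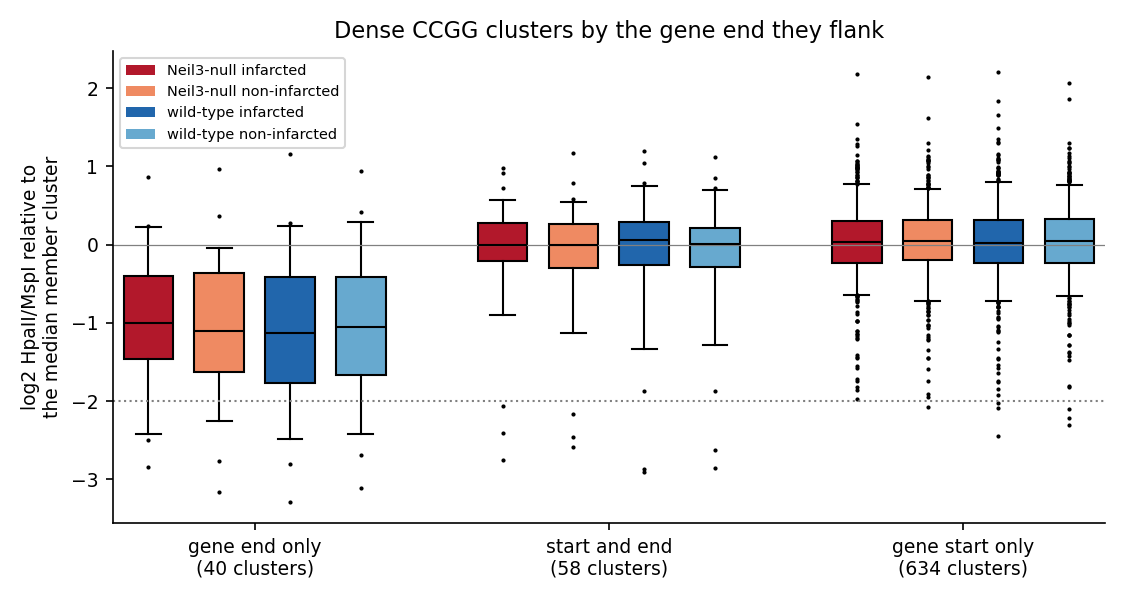
HpaII/MspI ratio of each cluster on a log2 scale relative to the median member cluster of the same sample, for clusters at gene ends only, at a start and an end, and at gene starts only. Boxes show quartiles with the median, whiskers the 5th and 95th percentiles, points the clusters beyond them, and the dotted line 0.25 times the median; the 40 end clusters sit lower than the 634 start clusters in all 4 samples.

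The step between start and end was seen in every distance bin. Member sites up to 1 kb on either side of a gene start had median HpaII/MspI ratios of 1.91 to 2.74 over 6 distance bins and 4 samples. Within 250 bp before the start (676 sites) the medians were 2.24 and 2.37 in infarcted and non-infarcted Neil3-null tissue and 2.36 and 2.45 in infarcted and non-infarcted wild-type tissue. Sites around gene ends had 0.95 to 1.5 over the same bins. Within the last 250 bp of the gene (45 sites) the medians were 0.955, 0.970, 0.977 and 1.08 in the same order of samples.

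None of the 12 lowest clusters lay at a gene start alone: 6 flanked gene ends only, 2 a start and an end, and 4 could not be placed. Their HpaII/MspI ratios ran between 0.141 and 0.433. The lowest cluster, at the end of Noxo1 (the organizer of NADPH oxidase 1) beside Tbl3, spanned chr17:24701338-24701464 with 3 sites. Its ratio was 0.191 and 0.203 in infarcted and non-infarcted Neil3-null tissue and 0.141 and 0.146 in infarcted and non-infarcted wild-type tissue, with all 3 sites below 1 in every sample. The second, at the end of Unc45a, a chaperone of myosin (chr7:80325762-80326202, 4 sites), had 0.343 and 0.208 in infarcted and non-infarcted Neil3-null tissue and 0.194 and 0.218 in infarcted and non-infarcted wild-type tissue. Infarcted Neil3-null tissue stood above the other 3 samples there.

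The third cluster covered the ends of Npas1, a neuronal transcription factor, and Tmem160 (chr7:16455736-16456149, 5 sites). It had 0.252 and 0.272 in infarcted and non-infarcted Neil3-null tissue and 0.270 and 0.291 in infarcted and non-infarcted wild-type tissue, a range narrower than that of Unc45a. Next came Prr22, the pair Asic4 (an acid-sensing channel subunit) and Chpf (chondroitin polymerization), the pair Josd2 (a deubiquitinase) and Aspdh, and the pair Srrd and Tfip11 (spliceosome disassembly). The remaining 5 were the ends of Jph3 (junctophilin of neurons), Cplane2 (ciliogenesis), Plppr3, and of the pair Efemp2 (fibulin-4, elastic fibre assembly) and Mus81 (a DNA repair endonuclease), and the unplaced cluster of Gpt (alanine aminotransferase). They ran from 0.194 to 0.205 times the median as a mean over samples. Within these 12 clusters 44 of 53 sites were below 1 in all 4 samples, but single sites stood out, such as one of the Efemp2 cluster with a mean ratio of 2.67 beside one with 0.0974. The median MspI signal per site of the 12 clusters, 60.5 to 80.8 over the samples, was not below that of all 905, 54.1 to 63.2.

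**Figure D3:**
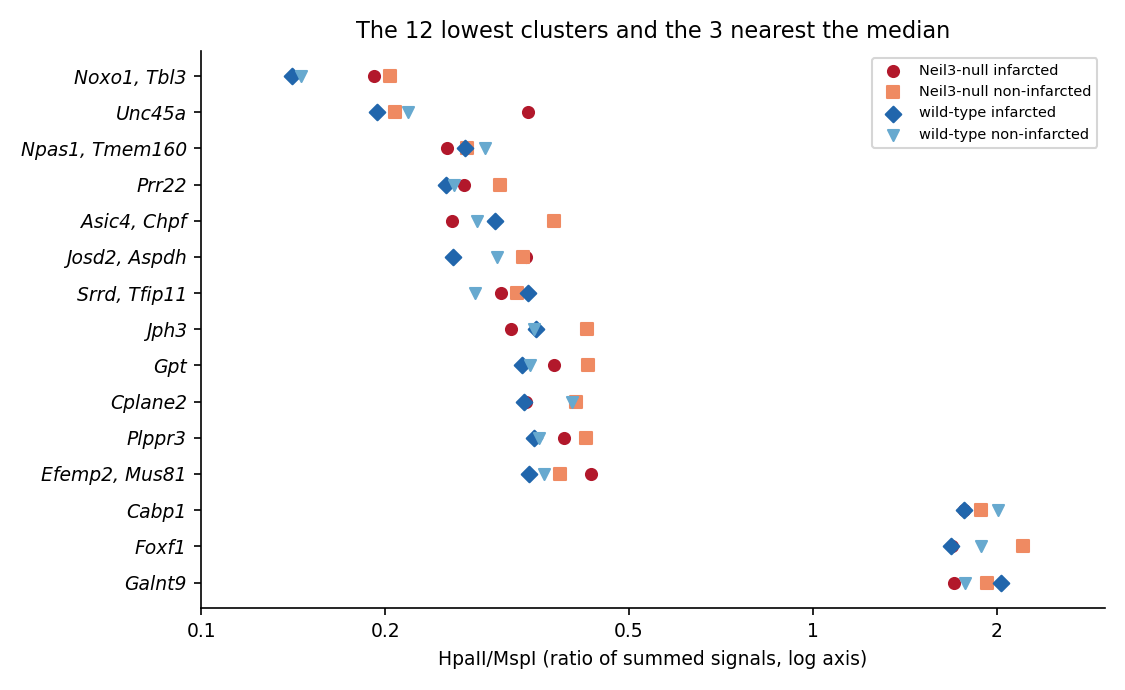
HpaII/MspI ratio (log axis) in each of the 4 samples for the 12 clusters with the lowest mean ratio and the 3 nearest to the median. The 12 lie between 0.141 and 0.433 in every sample and Cabp1, Foxf1 and Galnt9 between 1.68 and 2.21.

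The 3 clusters nearest the median were those of Cabp1 (a calcium-binding protein), Foxf1 (a forkhead transcription factor) and Galnt9 (a glycosyltransferase). Cabp1 had 1.77 and 1.89 in infarcted and non-infarcted Neil3-null tissue and 1.77 and 2.01 in infarcted and non-infarcted wild-type tissue. The clusters with the highest ratios, named after their values were seen, were those of Rfx2 (a transcription factor of ciliated cells), Uqcrc1 (a core subunit of respiratory complex III) and Shank2 (a synaptic scaffold). The Rfx2 start had 8.21 and 8.18 in infarcted and non-infarcted Neil3-null tissue and 8.70 and 7.89 in infarcted and non-infarcted wild-type tissue. Its mean MspI signal per site was 6.09 to 7.78, far below that of the typical cluster, and the part of this low denominator in the ratio was not tested.

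The 13 start clusters at or below 0.5 times the median in all 4 samples, singled out after their values were seen, had ratios of 0.348 to 0.909. They were those of Slc25a31, Ptpn3 and Ptpn20 (tyrosine phosphatases), Adad2 (a testis-expressed protein with an adenosine deaminase domain), Fbp2 (muscle fructose-bisphosphatase), Myog (the transcription factor myogenin of skeletal muscle), Krt42 and Krt79 (keratins), Hormad1, Tmem61, Plagl1 (an imprinted zinc finger gene) and the predicted genes Gm829 and 4933428G20Rik. The Slc25a31 cluster (6 sites, chr3:40708574-40709284) had 0.462 and 0.439 in infarcted and non-infarcted Neil3-null tissue and 0.348 and 0.378 in infarcted and non-infarcted wild-type tissue. Myog (3 sites) had 0.683 and 0.555 in infarcted and non-infarcted Neil3-null tissue and 0.633 and 0.534 in infarcted and non-infarcted wild-type tissue. Adad2 had a cluster at or below 0.5 times the median at its start and another at its end, at 0.264 and 0.349 times the median.

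The promoter windows of these 13 genes were, at the median, poorer in CpG than those of the other start clusters. The median ratio of observed to expected CpG in the RefSeq window was 0.439 for the 13 (quartiles 0.152 and 0.696). It was 0.813 (0.692 and 0.939) for the 716 other genes with a start cluster and a window, and 0.587 over all 16437 genes. The printed windows of Slc25a31 and Hormad1 had 0.826 and 0.713, above the upper quartile of the 13. GC content was 61% against 63.7%, and the window held a median of 2 CCGG against 3. These are descriptions of sequence, with no test of their part in the ratios.

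Among gene lists, germline genes had the lowest median over clusters of at least 3 sites. Of 72 genes of this list in the table, 4 had a cluster, with a median of 0.373 times the median cluster, and 2 of the 4 lay at or below 0.5 times in all 4 samples. Slc25a31 stood at 0.218, Hormad1 at 0.358 and Sycp1 (synaptonemal complex) at 0.387 times, while Pnldc1, an exonuclease that trims piRNAs, whose cluster it shares with Mrpl18, stood at 0.930. The 5 other germline genes with a member site, each in a cluster of 1 site, stood at or above the median, at 1.0 times for Tdrd5, 1.01 for Tex101, 1.18 for Pou5f1, 1.33 for Brdt and 3.78 for Lhx8, so 3 of the 9 genes stood below 0.5 times as a mean over samples. Imprinted genes had 4 clusters with a median of 0.644 times and 1 at or below 0.5 times, the start of Plagl1 at 0.457. Magel2 stood at 0.543 and Zrsr1 at 1.07 times. The same values over all 905 clusters were 1.0 times and 45.

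Housekeeping genes had 5 clusters with a median of 1.28 times the median cluster and none at or below 0.5 times; the lowest was Rps18 (ribosomal protein) at 0.694 and the highest the cluster between Dapk3 and Eef2 (translation elongation) at 1.55. Markers of heart cell types had no cluster of at least 3 sites at or below 0.5 times in all 4 samples; a single site at Xirp1, a cardiomyocyte gene, stood at 0.334 times. The 3 cardiomyocyte clusters had a median of 0.924, with Hcn4 (pacemaker channel) at 0.924 and Casq2 (calsequestrin) at 1.30. The 2 leukocyte clusters, Coro1a (coronin) and Cebpa (a myeloid transcription factor), stood at 0.969 and 1.52. The 4 endothelial clusters had a median of 1.19, from Cldn5 (a tight junction claudin) at 0.950 to Hey1 (a Notch target) at 1.24. Hox genes had 4 clusters with a median of 1.0, from Hoxd12 at 0.815 to Hoxc13 at 1.41. Developmental homeobox and related genes had 6 with a median of 0.842, from En2 at 0.755 to Sox1 at 1.10, and genes of DNA methylation and repair had 3 with a median of 1.30, from Mbd6 at 0.973 to Uhrf1 at 1.38. The clustered protocadherins had none.

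The C+mC/MspI ratio, which falls where 5hmC is present, varied less. No cluster was at or below 0.5 times the median in all 4 samples, against 1.57% of all classes. In 1 to 3 samples 13 clusters were, against 7220 of the 50247 clusters of all classes. Most of the 13 came from non-infarcted wild-type tissue, whose C+mC library stands apart. The SD of its log2 ratio over clusters was 0.44, against 0.33 to 0.35 in the other 3 samples. In non-infarcted wild-type tissue 11 clusters were below the line, against 1 and 2 in infarcted and non-infarcted Neil3-null tissue and 2 in wild-type infarcted tissue. Without that library the count in the other 3 samples was still 0. The lowest mean ratios outside the departing clusters were those of Tmem167 with Xrcc4 (DNA end joining), Eif3g (translation initiation), Ssrp1 (a histone chaperone subunit), Adar (RNA editing) and Tmem238. Tmem167 and Xrcc4 had 0.685 and 0.878 in infarcted and non-infarcted Neil3-null tissue and 0.549 and 0.497 in infarcted and non-infarcted wild-type tissue.

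Clusters low in HpaII/MspI were also low in C+mC/MspI. All 12 lowest had a mean C+mC/MspI ratio below the median cluster, from 0.423 times for Noxo1 to 0.994 times for Asic4 and Chpf, and so did 41 of the 45 at or below 0.5 times. Across the 905 clusters the mean log2 ratios correlated at r = 0.66, given as a description, since both have the same MspI signal as denominator. End clusters had a median C+mC/MspI ratio of 1.15 and 1.12 in infarcted and non-infarcted Neil3-null tissue and 1.12 and 1.08 in infarcted and non-infarcted wild-type tissue, against 1.27, 1.36, 1.21 and 1.39 in start clusters. The log2 difference, end minus start, was -0.23 ± 0.11 (SD over 4 samples), a smaller step than in HpaII/MspI.

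The remaining comparisons asked whether infarction or the loss of Neil3 moved the clusters. Each difference is relative to the median member cluster of its sample. The medians themselves differed by at most 0.06 on the log2 scale in HpaII/MspI, whereas the C+mC/MspI median was lower in infarcted than in non-infarcted tissue, by a log2 difference of -0.09 in Neil3-null and -0.18 in wild-type mice. Clusters of the other classes were centred on the same median member cluster. Shares over all classes in these comparisons therefore also hold any shift between classes. For infarction in wild-type mice the median C+mC/MspI difference was 0.001 in members and 0.21 in sparse clusters elsewhere. In HpaII/MspI it was -0.011 and 0.014. With 1 sample per group, clusters were counted by size, a log2 difference of at least 1. For HpaII/MspI the count was 0 of 905 in each of the 4 contrasts. Over all classes 0.31% of clusters were higher and 0.169% lower in infarcted tissue of Neil3-null mice, and 0.651% higher and 0.366% lower in infarcted tissue of wild-type mice. In Neil3-null relative to wild-type mice 0.476% were higher and 0.149% lower in infarcted tissue, and 0.448% higher and 0.127% lower in non-infarcted tissue. Other dense clusters also had few. For infarction in Neil3-null mice the count was 0 of 704 inside gene bodies and 0 of 196 far from genes. In wild-type mice it was 2 and 4, all higher. Member sites had a mean MspI signal of 55.8 to 64.1 over the samples, against 34.5 to 42.3 at sparse sites elsewhere. The part of signal in these counts was not tested. The SD of the log2 difference over the 905 clusters was 0.17 to 0.21, and the median SD of a cluster over the 4 samples was 0.11, against 0.96 between the sites of a cluster and 0.60 between clusters.

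The Ubqln5 start (a ubiquilin family gene, 4 sites) had HpaII/MspI ratios of 0.606 in infarcted and 0.947 in non-infarcted Neil3-null tissue, and 0.498 in infarcted and 0.843 in non-infarcted wild-type tissue. It was the only cluster lower by at least 0.5 on the log2 scale in infarcted tissue of both genotypes (differences of -0.61 in Neil3-null and -0.77 in wild-type), against 0.406% of the clusters of all classes. None was higher by that much in both, against 1.09% of all classes. The largest rise shared by both genotypes, named after values were seen, was at Bcl3 (0.44 in Neil3-null and 0.68 in wild-type mice). Fbp2 had 0.515 in infarcted and 0.724 in non-infarcted Neil3-null tissue, and 0.463 in infarcted and 0.70 in non-infarcted wild-type tissue. Values of Ubqln5 and Fbp2 were lower in both infarcted samples than in both non-infarcted ones. Both genes were picked from these same values, so this adds no support. How many clusters of all classes share this order was not counted.

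The other clusters named for their infarct difference were picked by its size within 1 genotype, and the limma model described below called none of them. In Neil3-null mice the largest positive differences were at Unc45a (a log2 difference of 0.75), Lrp6, a Wnt co-receptor (0.52), and Fam174b (0.44), and the largest negative ones after Krt42 (-0.68) and Ubqln5 were at Morc3, a nuclear ATPase (-0.54). In wild-type mice the largest positive differences were at Ric8b, a chaperone of G protein subunits (0.99), Nop2, an rRNA methyltransferase (0.77), and Spag7 with Camta2 (0.76), and the largest negative ones were at Ubqln5, at the end of the imprinted gene Nnat (-0.77) and at Fbp2 (-0.61). Ric8b had ratios of 5.26 in infarcted and 5.66 in non-infarcted Neil3-null tissue, and 6.73 in infarcted and 3.38 in non-infarcted wild-type tissue. Its MspI signal per site was 15.9, 9.53, 11.4 and 27.2 in the same order, so the sample with the lowest ratio had the highest denominator. The infarct difference had the same sign in both genotypes at 458 of 905 clusters. The same count over all classes was not made.

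**Figure D4:**
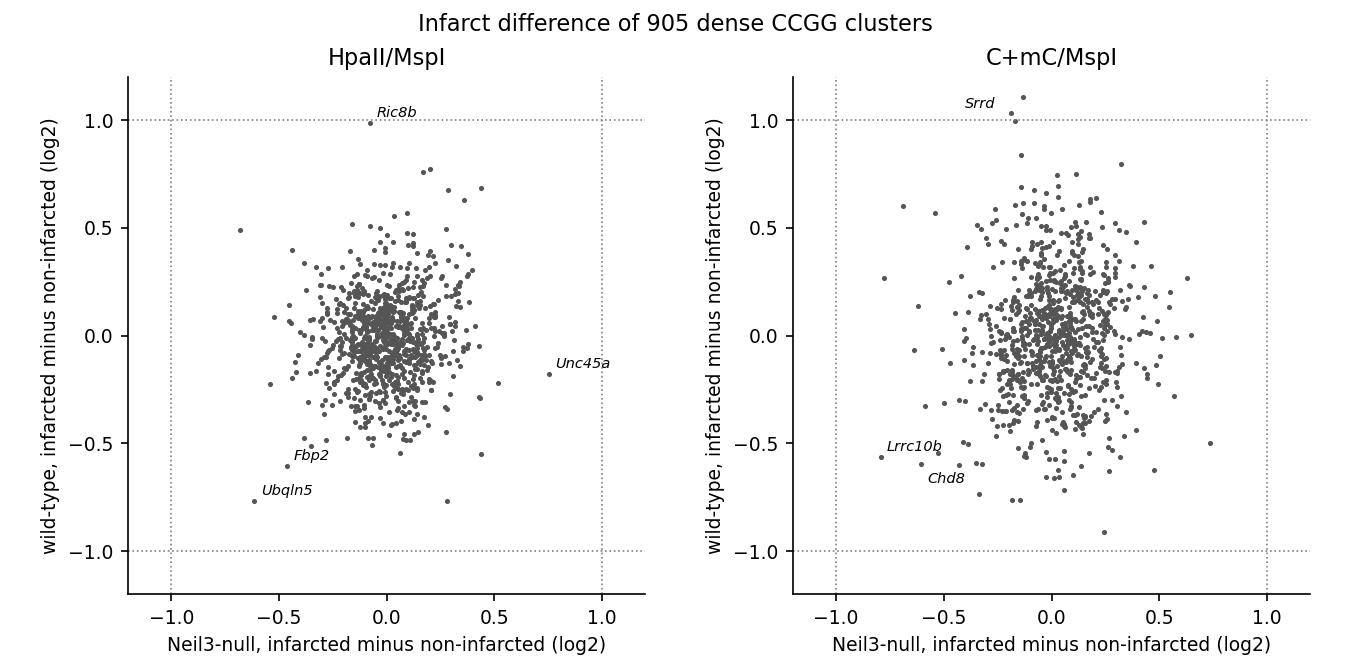
Log2 difference, infarcted minus non-infarcted, of each of the 905 clusters relative to the median cluster, in Neil3-null mice (horizontal axis) and wild-type mice (vertical axis), for HpaII/MspI (left) and C+mC/MspI (right). Dotted lines mark a log2 difference of 1 in either direction; in HpaII/MspI no cluster passes them, Ubqln5 lies lowest in both genotypes together and Ric8b comes closest with 0.99 in wild-type mice.

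For genotype, the Noxo1 cluster described above was the only one higher by at least 0.5 on the log2 scale in Neil3-null than in wild-type mice in both tissues (0.50 in infarcted and 0.50 in non-infarcted tissue, just past the threshold), against 0.794% of the clusters of all classes. None was lower by that much in both, against 0.161%. In infarcted tissue the largest positive differences were at Unc45a (0.88), the end of Nyap1 (0.73) and Chmp2b, a subunit of the ESCRT machinery (0.68), and the largest negative ones at Rcn1, a calcium-binding protein of the endoplasmic reticulum (-0.61), Aqp11, an aquaporin (-0.59), and Chchd5 (-0.59). In non-infarcted tissue they were at Krt42 (0.77), Ric8b (0.77) and Chchd7 with Plag1 (0.57), and at Mettl24 (-0.82), Casq2 (-0.60) and Sycp1 (-0.59). Casq2, the calcium store protein of cardiomyocytes, had 2.16 in Neil3-null and 2.50 in wild-type infarcted tissue, and 2.02 in Neil3-null and 3.11 in wild-type non-infarcted tissue.

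In C+mC/MspI 2 clusters were higher by at least 1 on the log2 scale in infarcted wild-type tissue, among them Srrd with Tfip11 (1.04), against 1.89% of all classes higher and 0.362% lower. In non-infarcted tissue 2 were higher in Neil3-null mice, among them Ric8b (1.01), against 0.673% higher and 0.37% lower. Both contrasts use the wild-type non-infarcted C+mC library that stands apart. With libraries rescaled to equal totals and no centring on the median cluster, infarcted wild-type tissue had 0 higher and 1 lower. With the median of per-site ratios it had 7 higher and 17 lower, and genotype in non-infarcted tissue had 4 higher and 8 lower. The contrasts without it had none, infarction in Neil3-null mice (0.0816% of all classes higher and 0.0418% lower) and genotype in infarcted tissue (0.0458% higher and 0.0856% lower). The cluster of Srrd and Tfip11 had 0.836 in infarcted and 1.01 in non-infarcted Neil3-null tissue, and 1.0 in infarcted and 0.553 in non-infarcted wild-type tissue.

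An additive limma model over the 4 samples, with Benjamini-Hochberg adjustment over all 50247 clusters, called 0 of the 905 clusters for infarction and 0 for genotype in either ratio. It called 1 of all clusters (0.00199%), higher in infarcted tissue in C+mC/MspI, and none (0%) in HpaII/MspI or for genotype. The model has 1 residual degree of freedom, the difference between the genotypes' infarct effects. Its p-values also draw on a variance pooled over all 50247 clusters, with 6.96 prior degrees of freedom in HpaII/MspI and 22.8 in C+mC/MspI. At an unadjusted p under 0.05 limma had 8 clusters higher and 4 lower in infarcted tissue for HpaII/MspI (5.83% and 3.2% of all classes), and 3 higher and 3 lower in Neil3-null mice (4.85% and 1.61%). For C+mC/MspI the counts were 3 higher and 11 lower in infarcted tissue (9.26% and 1.39% of all classes), and 6 higher and 7 lower in Neil3-null mice (2.37% and 3.26%). The smallest adjusted p among the 905 was 0.428 for HpaII/MspI, at Ubqln5 (log2 effect -0.69), and 0.359 for C+mC/MspI, at Lrrc10b (-0.68).

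The 11 clusters lower in C+mC/MspI in infarcted tissue at an unadjusted limma p under 0.05, named after their values were seen, began with Lrrc10b and Chd8, a chromatin remodeller. They were 1.215% of the 905, below the 1.39% of all classes, so their number does not set the members apart. Lrrc10b had C+mC/MspI ratios of 1.06 in infarcted and 1.95 in non-infarcted Neil3-null tissue, and 1.17 in infarcted and 1.96 in non-infarcted wild-type tissue. Chd8 had 0.892 in infarcted and 1.44 in non-infarcted Neil3-null tissue, and 0.863 in infarcted and 1.47 in non-infarcted wild-type tissue, and was lower in infarcted tissue in HpaII/MspI as well (1.93 and 2.52 in infarcted and non-infarcted Neil3-null tissue, 1.69 and 2.39 in infarcted and non-infarcted wild-type tissue). The C+mC/MspI ratios given here are not centred, so they also hold the lower median of infarcted tissue. Values of both genes in the 2 infarcted samples did not overlap those of the 2 non-infarcted ones. Both genes were picked from these same values, so this adds no support. How many clusters of all classes share this order was not counted. Neither passed the adjusted threshold (adjusted p 0.359 and 0.379 by limma in C+mC/MspI).

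The last comparison was of which sites were listed. Of 6055 dense sites at gene starts or ends listed in both wild-type files, 17 (0.281%) were in neither Neil3-null file, against 0.748% of all autosomal sites. The reverse, listed in both Neil3-null files and neither wild-type file, held for 1 of 6007 (0.0166%), with no count over all sites. Over all sites the share in both wild-type files and neither Neil3-null file was 1.48% on chromosome 1 and 2.84% on chromosome 8. Of the 17 dense sites, 2 lay on chromosome 1 and 2 on chromosome 8; the 2 chromosomes held 101 of the 905 clusters and 2 of the 12 that departed.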

How the data were processed

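HMST-seq was done on genomic DNA of 4 left ventricle samples, 1 per group, with 3 libraries each (12 in all): HpaII, MspI, and MspI after glucosylation, per the labels' protocols. For each site the authors deposited 1 normalized signal per library. The sources used here state neither the normalization nor the aligner and filters. The depth in tags is unknown, so no counting interval could be computed. The build is mm10, per the submitters' processing notes. The position of a site is the deposited value plus 1, which put every listed site of the promoter windows on the first base of a CCGG. Genes, strands and promoter windows (250 bases before to 50 after a start) came from RefSeq tables on GRCm38.p6; 4208 of 20665 genes had no strand there.

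Ratios are of summed signal over the sites of a class or cluster. Clusters of every class joined sites at gaps of at most 500 bp and needed at least 3 sites. Log2 ratios were set relative to the median member cluster of the sample. limma 3.58.1 in R 4.3.3 fitted infarct and genotype over all 50247 clusters and was tested on simulated data; other steps used Python 3.11.15, numpy 2.4.6 and pandas 2.3.3. The members, the 10 gene lists, the thresholds and the rule for named genes were chosen with earlier results of these data known. Named were the 12 lowest clusters and the 3 nearest the median in HpaII/MspI, the 5 lowest in C+mC/MspI among the others, the 3 largest positive and negative differences per contrast in HpaII/MspI, and the 2 lowest and the highest of each list, passing over predicted names; other names are said to have been chosen after values were seen, and some clusters that the rule names are not reported here. Alternatives changed the scaling, the minimum MspI signal, the summary over sites, the distance, the density, the thresholds and the chromosomes used. The labels do not say that any samples share animals. The permutation p-values measure the spread between these 4 samples only, and the limma p-values also draw on the variance pooled over all 50247 clusters.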

Additional observations from a re-analysis of the deposited data

Results flagged for a closer look

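Among the clusters named for a contrast, 4 pairs of differences had opposite signs, each beyond 2 SD of its contrast over the 905 clusters; the difference between the groups was not tested. The infarct differences as such had opposite signs at 447 of the 905 clusters in HpaII/MspI and the same sign at 458. The same count over all classes was not made. In HpaII/MspI, the end of Fam174b was higher in infarcted than in non-infarcted Neil3-null tissue (log2 difference 0.4386) and lower in infarcted than in non-infarcted wild-type tissue (-0.5495). The Krt42 start was lower in infarcted Neil3-null tissue (-0.6789) and higher in infarcted wild-type tissue (0.4904). The same 4 values of Krt42 gave a lower ratio in Neil3-null than in wild-type infarcted tissue (-0.4034) and a higher one in Neil3-null than in wild-type non-infarcted tissue (0.7659). In C+mC/MspI, the Ric8b start was lower in infarcted Neil3-null tissue (-0.6896) and higher in infarcted wild-type tissue (0.6035), and the wild-type value uses the library that stands apart.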

How the results depend on the processing

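Of 241 values recomputed under alternatives, 181 kept within their margin (1.5 times for counts, 1 SD over the 4 samples for mean ratios) and 60 moved. The main mean over samples of HpaII/MspI was 1.78 for members. Sites within 1 kb of a gene start or end had 1.55, 1.84, 1.78 and 1.73 with 1, 2 to 4, 5 to 7 and 8 to 11 listed sites. Libraries rescaled to equal totals, with no centring on the median cluster in the differences below, gave 1.71 for members and 1.48, 1.77, 1.71 and 1.65 by class. A mean MspI signal of at least 10 gave 1.73, and 1.38, 1.72 and 1.73 in the first 3 classes; at least 20 gave 1.60, and 1.13, 1.52, 1.60 and 1.60. The class of 2 to 4 sites was not highest under either minimum. The median of per-site ratios gave 2.05, and 1.49, 2.14, 2.05 and 2.05. Within 500 bp of a start or end the first 2 classes had 1.63 and 1.93, and at least 8 listed sites gave 1.73 for members. The 12 departing clusters became 6 within 500 bp, 0 of 12 clusters with at least 8 listed sites, 7 of 464 clusters with at least 5 sites, 45 at 0.5 times the median and 1 at 0.125 times; at least 1 site per cluster, added after seeing the data, gave 49 of 1903 and 15 for C+mC/MspI. The counts past a log2 difference of 1 were sensitive to the summary. With the median of per-site ratios, HpaII/MspI had 1 cluster higher and 1 lower for infarction in Neil3-null and 9 and 1 in wild-type mice, and 2 higher and 3 lower for genotype in infarcted and 5 and 3 in non-infarcted tissue. C+mC/MspI then had 3 and 3, 7 and 17, 7 and 3, and 4 and 8 in the same order, so the split turned towards lower for infarction in wild-type mice and for genotype in non-infarcted tissue. For HpaII/MspI, 63 of 72 counts stayed at 0 over the alternatives; the other exception was 1 cluster higher in infarcted wild-type tissue within 500 bp. The 2 clusters higher in C+mC/MspI in infarcted wild-type tissue became 0 (and 1 lower) after equal totals without centring, 1 at an MspI signal of at least 20, 1 within 500 bp, and 0 with at least 8 listed sites, with at least 5 sites per cluster and at a log2 difference of 2. The 2 higher in non-infarcted Neil3-null tissue became 0 under each of these, and also at an MspI signal of at least 10. All 28 limma counts stayed at 0. Except for the counts lost to fewer clusters or sites, the cause was not tested. No paired analysis was possible because each group has 1 sample, so no replicate number could serve as a block; the permutation tests pair 2 values of the same sample. Leaving out a replicate was not possible for the same reason. Classes of 12 or more listed sites gave no values. The number of tags is unknown, so the part of depth in the values of low-signal clusters could not be tested.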
